A study of Mus musculus with 3 samples.

Results

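Lef1, Tcf7, Tcf7l1, Tcf7l2, Tle1, Tle2, Tle3, Tle4, Aes and Ctnnb1 were followed over the epithelium of the mouse small intestine. They are the 4 Tcf/Lef transcription factors, the 5 corepressors of the Groucho/Tle family and beta-catenin. They were chosen by name and made up 10 of the 27998 genes in the deposited gene lists, and each had at least 1 count in every library. The counts come from single-cell RNA sequencing of sorted cells that carried the epithelial surface protein EpCAM, with 1 library for each of 3 genotypes on the C57BL/6 background. WT was wild type and was taken 21 days after tamoxifen. LApc carried Lgr5-CreERT2 and Apc fl/fl and was taken on day 29. LApcL carried Lgr5-CreERT2, Apc fl/fl and Lef1 fl/fl and was taken on day 21. All mice were 7 to 8 weeks old when they were given 2 doses of 2 mg tamoxifen. LApc and LApcL were taken when the mice met the criteria for euthanasia. The Cre recombinase stands in the Lgr5 locus, so recombination starts in intestinal stem cells. The libraries of LApc and LApcL can therefore hold recombined and normal cells together. Because each genotype was 1 library, genotype cannot be told apart from mouse and library, nor from day for LApc. No test was therefore possible, and every interval given covers counting error only.

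In Wnt signalling, beta-catenin that escapes the Apc-containing destruction complex enters the nucleus and binds Tcf/Lef factors on DNA. The factors carry a DNA-binding HMG box and have no strong activating domain of their own, so that bound beta-catenin activates their targets, and bound Tle proteins repress them. In the intestine Tcf7l2 is known as the factor that maintains crypt stem cells. Tcf7 and Lef1 are known as Wnt targets as well as effectors, Tcf7l1 is known mainly as a repressor, and Aes is a short Tle relative that lacks the C-terminal repeat domain of the long ones.

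Lef1 (ENSMUSG00000027985) lies on mm10 at chr3:131110471-131224356 on the plus strand, and Tcf7 (ENSMUSG00000000782) at chr11:52252371-52283014 on the minus strand. Tcf7l1 lies at chr6:72626378-72789254 and Tcf7l2 at chr19:55741820-55933654. Tle1 lies at chr4:72117142-72200919, Tle2 at chr10:81574561-81590845, Tle3 at chr9:61372366-61418497 and Tle4 at chr19:14448150-14598051. Aes lies beside Tle2 at chr10:81559488-81566362, and Ctnnb1 at chr9:120929216-120960507. Promoter windows of 300 bases, from 250 before to 50 after an annotated start, were taken from RefSeq (GRCm38.p6) for 9 of the 10 members. Aes was not among them. The windows shown are those of Lef1 and Tcf7, the tested members whose levels differed most between adenoma and other crypt cells of LApc. Capitals mark the 6-letter core to which Tcf/Lef factors bind, searched in the form CTTTGA and in the form CTTTGT. The search covered both strands, on which these read TCAAAG for the first form and ACAAAG for the second. Each window is written 5′ to 3′ on the strand of its gene.
Lef1, outermost start, chr3:131110047-131110346, plus strand: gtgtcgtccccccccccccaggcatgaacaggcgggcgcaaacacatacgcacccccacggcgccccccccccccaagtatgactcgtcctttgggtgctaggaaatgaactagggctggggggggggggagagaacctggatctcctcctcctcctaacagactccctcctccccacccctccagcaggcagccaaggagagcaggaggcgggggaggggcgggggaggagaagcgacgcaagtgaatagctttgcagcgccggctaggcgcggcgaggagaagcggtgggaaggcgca
Lef1, innermost start, chr3:131156044-131156343, plus strand: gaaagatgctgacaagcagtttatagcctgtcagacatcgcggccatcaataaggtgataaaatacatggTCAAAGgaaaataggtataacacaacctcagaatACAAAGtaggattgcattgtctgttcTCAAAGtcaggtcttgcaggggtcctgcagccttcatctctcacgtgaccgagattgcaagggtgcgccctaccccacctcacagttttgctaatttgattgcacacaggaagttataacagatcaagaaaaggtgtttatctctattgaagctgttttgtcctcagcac
Tcf7, outermost start, chr11:52282965-52283264, minus strand: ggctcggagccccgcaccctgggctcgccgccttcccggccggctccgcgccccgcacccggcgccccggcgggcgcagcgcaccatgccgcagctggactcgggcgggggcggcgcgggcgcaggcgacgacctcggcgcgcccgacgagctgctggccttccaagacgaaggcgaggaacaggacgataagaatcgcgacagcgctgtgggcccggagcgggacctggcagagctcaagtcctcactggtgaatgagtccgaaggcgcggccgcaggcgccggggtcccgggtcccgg

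The window of the innermost Lef1 start held 3 such cores, at 180, 146 and 120 bases before the start, and the other 3 Lef1 windows held none. The first and the last Lef1 start are 45997 bases apart, and counts from the 3′ end of transcripts cannot tell which start a transcript came from. Neither of the 2 Tcf7 windows held the core. The printed Tcf7 window holds a start codon (atg), from which it reads as codons to its end without a stop codon. Whether that stretch is coding sequence rather than promoter was not tested. Sequence further upstream of Tcf7 was not searched, so the absence of the core applies to these windows only. Among the 16 windows of the members, 3 held the core, those of Lef1, Tcf7l1 (28 bases before the start) and Tcf7l2 (14 bases before its inner start). That was 18.8% of the members' windows, against 31.2% of all 32851 mouse windows, and 6.68% of all windows held 2 or more. Windows of 1 gene can overlap, as the outer 2 of Lef1 do. Counted by gene, 3 of the 9 members with a window held the core, against 34.5% of 27025 genes. The members are thus not set apart from other genes. A match is a string of letters and not a measured binding site.

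The files held 11453 (WT), 13214 (LApc) and 17388 (LApcL) barcodes with 140181087, 79696291 and 191509615 molecules counted by unique molecular identifier (UMI). After filtering, 10138, 9601 and 14394 cells were kept, with medians of 9712, 6133 and 10140 UMIs. Clusters were named "-like" from markers, with the members themselves left out of the clustering, and a cluster led by the ileal bile acid carrier Fabp6 stayed unnamed. The crypt cells, which carry markers of stem and transit-amplifying (TA) cells and are called Wnt/TA-like, were divided into adenoma-enriched cells, to which WT contributed under 10% by weighted numbers, and other crypt cells. Adenoma-enriched cells numbered 2 in WT, 1237 in LApc and 9236 in LApcL, and other crypt cells 3076, 2324 and 1409. Pairs of libraries shared 120 to 222 kept barcodes. Epcam, the gene of the sort marker, stood at 189 to 2349 CPM over all classes and libraries. Sox17, an adenoma transcript in these data, stood at 184 CPM (the UMIs of a gene, with each group scaled to a total of 1000000) in the adenoma-enriched cells of LApc and 311 CPM in those of LApcL. In LApcL it was also present at 27.6 to 112 CPM in every other class, against at most 0.869 CPM in any class of WT and 1.21 to 25.9 CPM in the other classes of LApc. Adenoma transcripts were thus counted in all cell classes of LApcL, and low values of members in that library stand beside this level.

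The targeted genes were examined first. Lef1 stood at 21.4 CPM (95% interval 18.6 to 24.4, 210 UMIs) in the adenoma-enriched cells of LApc and at 3.52 CPM (3.18 to 3.89, 390 UMIs) in those of LApcL, where it is floxed. Apc stood at 49.1 CPM in the adenoma-enriched cells of LApc and 37.0 CPM in those of LApcL, above the 19.2 to 23.1 CPM of other crypt cells in the 3 libraries. The sources used here do not give the Lef1 exons between the loxP sites, and a count at the 3′ end can include a transcript that lacks them. Neither gene's count therefore checks the deletion fully.

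Over the normal epithelium of WT, Tcf7l2 was the Tcf/Lef factor detected at an appreciable level in every class. It stood at 39.1 CPM in other crypt cells, 63.6 CPM in enterocyte-like cells, 71.4 CPM in goblet-like cells and 80.8 CPM in the Fabp6-led cluster. Its highest level was in tuft-like cells, at 82.1 CPM (70.8 to 94.7), and its lowest in Paneth-like cells, at 17.4 CPM (15.6 to 19.4). The interval of tuft-like cells overlapped those of the Fabp6-led cluster (74.9 to 87.1) and of goblet-like cells (68.5 to 74.4), so neither was separated from it beyond counting error, while other crypt cells (37.0 to 41.2) lay below all 3. Tuft-like cells were again highest in LApc, with 83.3 CPM, and in LApcL, with 89.6 CPM. The factor that maintains crypt stem cells was thus at a higher share of counts in the differentiated classes other than Paneth-like cells than in other crypt cells of WT. Paneth-like cells held a median of 43554 UMIs in WT against 14504 in LApc and 16705 in LApcL. Most genes were at a higher share in the Paneth-like cells of the mutant libraries (median log2 difference 0.66 for LApc and 0.75 for LApcL against WT), so their levels are not compared between libraries without that shift.

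**Figure D1:**
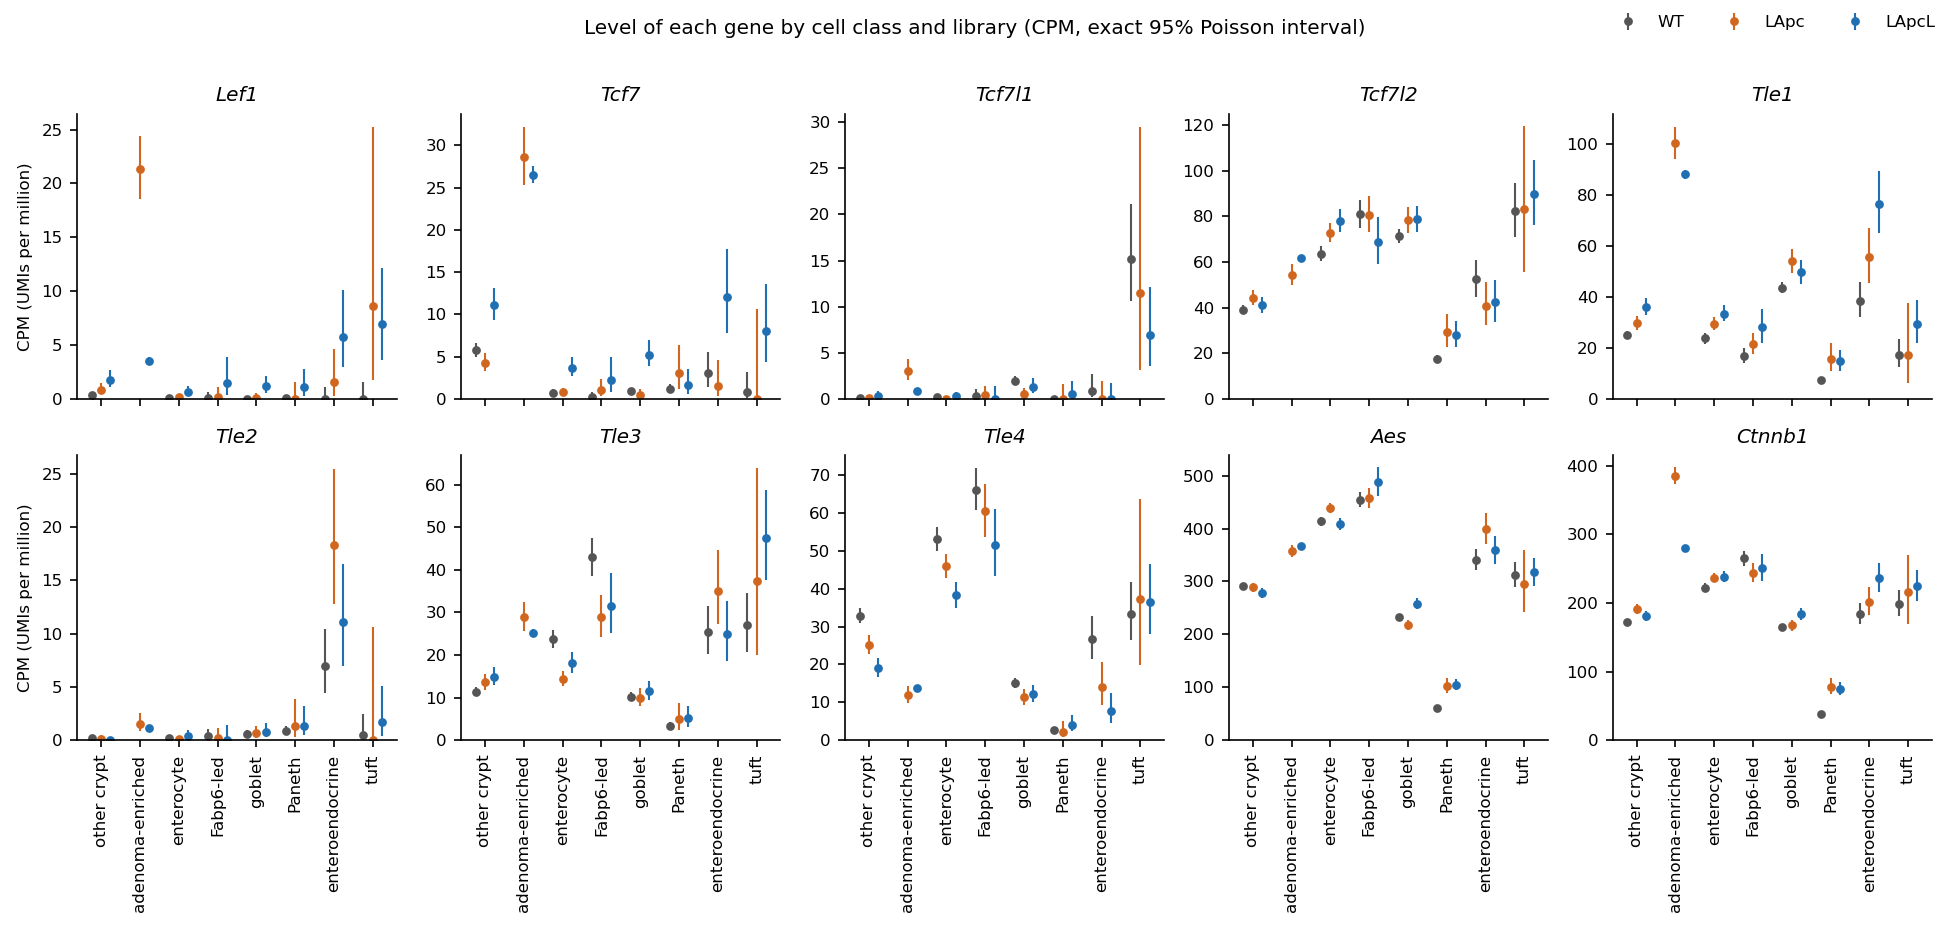
Level of each of the 10 members in CPM (linear vertical axes from 0, one panel per gene) by cell class on the horizontal axis and library by color, with bars for exact 95% Poisson intervals; adenoma-enriched cells are not shown for WT, which had 2. Lef1 stood at 21.4 CPM in the adenoma-enriched cells of LApc and at 3.52 CPM in those of LApcL, Tcf7l1 was highest in tuft-like cells, Tle2 in enteroendocrine-like cells, and Tcf7l2, Aes and Ctnnb1 were detected in every class.

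Tcf7, Lef1 and Tcf7l1 each had a narrower distribution. Tcf7 stood at 5.79 CPM (5.01 to 6.64, 201 UMIs) in other crypt cells of WT, against 0.702 CPM in enterocyte-like cells, 0.952 CPM in goblet-like cells and 3.03 CPM (1.45 to 5.57, 10 UMIs) in enteroendocrine-like cells. Within the other crypt cells of WT it was higher in the subclusters led by Olfm4 and Lgr5 (8.85 CPM, 7.03 to 11) and by Clca3b and Nusap1 (8.63 CPM, 6.36 to 11.4) than in the one led by Dmbt1, Rbp7 and Arg2 (3.63 CPM, 2.84 to 4.58). Olfm4 and Lgr5 are stem cell genes and Nusap1 is a gene of dividing cells. The interval of the Dmbt1-led subcluster lay below both others.

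Lef1 was near the limit of counting in the epithelium of WT. In WT it had 12 UMIs in other crypt cells (0.345 CPM, 0.179 to 0.604), 1 UMI each in enterocyte-like cells, Paneth-like cells and the Fabp6-led cluster, and 0 in goblet-like, enteroendocrine-like and tuft-like cells. A count of 0 allows up to 0.0952, 0.909 and 1.30 CPM in these 3 classes. Of the 12 UMIs in other crypt cells, 7 lay in the subcluster led by Olfm4 and Lgr5 and 2 in the one led by Dmbt1.

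Tcf7l1 was highest in tuft-like cells in all 3 libraries. Its 35 UMIs in WT made 15.2 CPM (10.6 to 21.2) in that class, the 4 in LApc made 11.5 CPM (3.13 to 29.4) and the 12 in LApcL made 6.94 CPM (3.58 to 12.1). Tuft cells are chemosensory cells that secrete interleukin-25. In LApc the interval overlapped that of adenoma-enriched cells, which stood at 3.05 CPM (2.06 to 4.35). Goblet-like cells came next in WT, at 1.94 CPM (1.48 to 2.49, 61 UMIs). They held 5 UMIs of it in LApc, or 0.523 CPM, and 12 in LApcL, or 1.31 CPM. Other crypt cells had 3, 2 and 4 UMIs of Tcf7l1 in WT, LApc and LApcL. Cd3e, Cd3g and Cd3d, which define T cells, were at 0 in the tuft-like cells of all 3 libraries, and the lymphocyte list as a whole stood at 567, 1316 and 499 CPM there, mostly from Rac2 and Ptprc.

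Among the corepressors the long Tle genes differed from each other by class. Tle4 was highest in absorptive cells: in WT it stood at 66.1 CPM (60.8 to 71.9) in the Fabp6-led cluster and 53.1 CPM (50.02 to 56.2) in enterocyte-like cells, against 32.9 CPM in other crypt cells, 15.1 CPM in goblet-like cells and 2.63 CPM in Paneth-like cells. Within the other crypt cells of WT, Tle4 was higher in the subcluster where Tcf7 was lower than in both others, with 39.0 CPM (36.3 to 41.9) in the Dmbt1-led, 29.5 CPM (25.1 to 34.3) in the Nusap1-holding and 22.6 CPM (19.6 to 25.9) in the Olfm4-led subcluster. The small Ctrb1-led subcluster of WT (58 cells) held 1 UMI of Tcf7 and stood at 23.1 CPM (11.5 to 41.3) for Tle4, too few counts to place it in either order. Tle3 was instead at 8.09 CPM (6.87 to 9.45) in the Dmbt1-led and 16.3 CPM (13.8 to 19.1) in the Olfm4-led one. Over the classes, Tle3 had its highest WT level in the Fabp6-led cluster (42.9 CPM, 38.6 to 47.6), at 25.4 CPM in enteroendocrine-like and 26.9 CPM in tuft-like cells, with 11.4 CPM in other crypt cells. Tle1 was ordered differently, with goblet-like cells highest in WT (43.6 CPM, 41.4 to 46.0), then enteroendocrine-like cells (38.5 CPM, 32.1 to 45.8), and the Fabp6-led cluster at 16.9 CPM. The intervals of goblet-like and enteroendocrine-like cells overlapped, and both lay above other crypt cells at 25.02 CPM (23.4 to 26.7).

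Tle2 was the rarest corepressor and was highest in enteroendocrine-like cells, the hormone-secreting class, in all 3 libraries. Its 23 UMIs in WT made 6.97 CPM (4.42 to 10.5), the 35 in LApc made 18.3 CPM (12.8 to 25.5) and the 23 in LApcL made 11.1 CPM (7.01 to 16.6). In other crypt cells it had 6 UMIs in WT (0.173 CPM), 2 in LApc and 0 in LApcL. After each cell was thinned to 3000 UMIs, 3.00% (1.45 to 5.45) of WT enteroendocrine-like cells were positive for Tle2, against 0.0484% (1 of 2066 cells) of enterocyte-like cells.

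Aes and Ctnnb1 were detected in every class, and the order of their levels was nearly the same. Aes stood at 455 CPM in the Fabp6-led cluster, 414 CPM in enterocyte-like cells, 291 CPM in other crypt cells and 232 CPM in goblet-like cells of WT, and 61.1 CPM in Paneth-like cells. Ctnnb1, which encodes beta-catenin and also serves cell junctions, stood at 265, 222, 172, 164 and 37.9 CPM in the same classes. Among normal classes both were thus highest in the Fabp6-led cluster and lowest in Paneth-like cells. In LApc and LApcL the highest level of Ctnnb1 was in adenoma-enriched cells, and that of Aes remained in the Fabp6-led cluster. Transcript counts do not measure the stability or location of beta-catenin protein, through which Apc acts on it.

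Shares within a family do not depend on the total of the other genes, although genes with different 3′ ends may be captured unequally. Of the Tcf/Lef UMIs in other crypt cells of WT, Tcf7l2 made up 86.3% (84.5 to 87.9), Tcf7 12.8% (11.2 to 14.5) and Lef1 0.762% (0.395 to 1.33). In enterocyte-like cells Tcf7l2 made up 98.6%. Tcf7l1 made up 15.5% (11 to 20.9) of the family in WT tuft-like cells, and 11.1% (3.11 to 26.1) and 6.22% (3.25 to 10.6) in those of LApc and LApcL. In adenoma-enriched cells of LApc the family was divided between Tcf7l2 at 50.6% (47.6 to 53.7), Tcf7 at 26.6% (24 to 29.4) and Lef1 at 19.9% (17.5 to 22.4). In those of LApcL the shares were 66.6% (65.7 to 67.6) for Tcf7l2, 28.6% (27.8 to 29.5) for Tcf7 and 3.80% (3.44 to 4.19) for Lef1. The interval of Tcf7 overlapped between the libraries, so the smaller share of Lef1 in LApcL stood beside a larger share of Tcf7l2.

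Of the Tle UMIs, Aes made up 80.7% in other crypt cells of WT and 71.5% and 74.1% in the adenoma-enriched cells of LApc and LApcL. Tle1 held a larger and Tle4 a smaller share in adenoma-enriched than in other crypt cells. Tle1 made up 6.93% (6.49 to 7.39) of the family in other crypt cells of WT and 20.04% (18.9 to 21.2) and 17.8% (17.5 to 18.1) in the adenoma-enriched cells of LApc and LApcL. Tle4 made up 9.12% (8.63 to 9.64), 2.38% (1.97 to 2.84) and 2.78% (2.65 to 2.92) of the family in the same groups. In the other crypt cells of LApc, Tle1 made up 8.31% and Tle4 7.04%, and in those of LApcL 10.3% and 5.49%, so Tle4 was above Tle1 only in the other crypt cells of WT among these 5 groups.

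**Figure D2:**
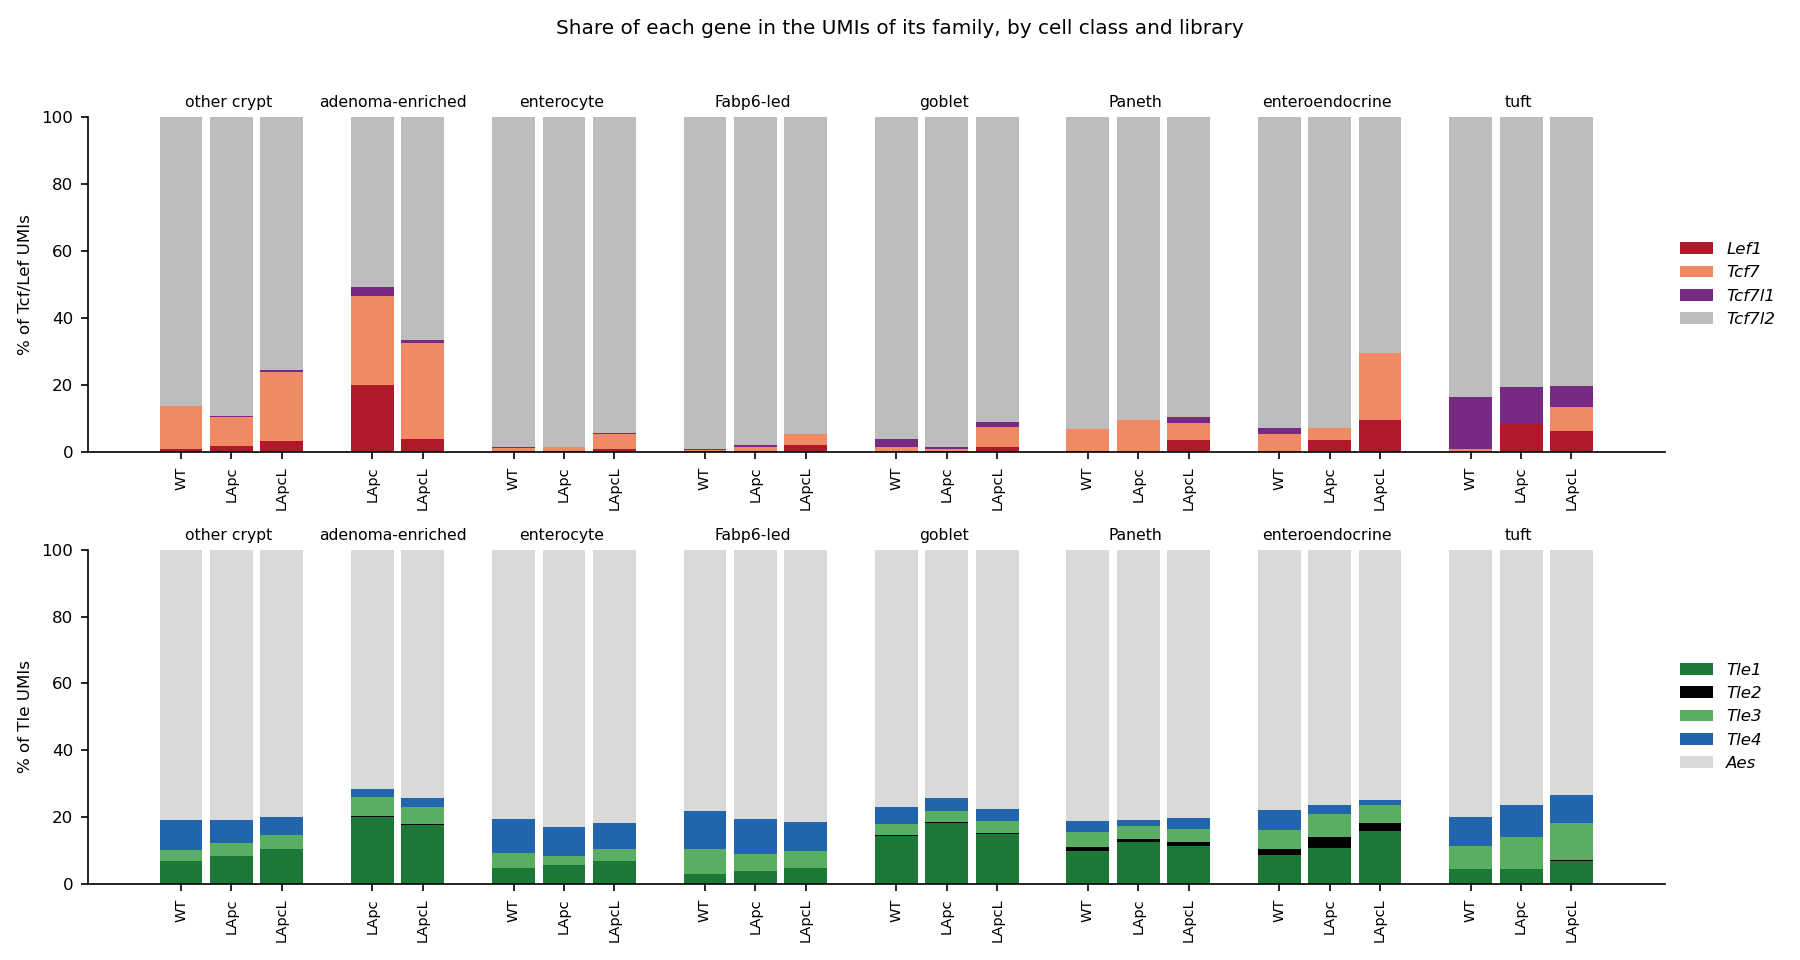
Percent of Tcf/Lef UMIs (4 genes) and percent of Tle UMIs (5 genes) on the axes from 0 to 100, as stacked bars for each cell class and library. Tcf7l2 filled most of the Tcf/Lef bar in every group, with 50.6% in the adenoma-enriched cells of LApc, where Lef1 held 19.9%, and Aes filled most of the Tle bar.

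The comparison of LApc with WT in other crypt cells asks whether crypt cells that were not drawn into the adenoma class differ between the animals. A gene was called when its CPM differed by more than 1.5-fold, among genes with at least 50 UMIs in both groups together. Of the 7 members tested, 0 were called, where 10.8% of all 11253 genes were called higher and 3.36% lower. Lef1, Tcf7l1 and Tle2 had too few UMIs. Tcf7 stood at 4.30 CPM in LApc against 5.79 CPM in WT, a log2 difference of -0.43 (-0.84 to -0.03). Tle4 differed by -0.39 (-0.55 to -0.22), at 25.2 against 32.9 CPM. The median over the 7 members was 0.15 and over all genes 0.05.

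Between LApcL and WT, 1 of the 7 tested members was called higher and 1 lower, where 7.84% of all genes were called higher and 5.81% lower. Tcf7 was 1.92-fold higher, at 11.1 CPM (9.33 to 13.1) against 5.79 CPM, with a log2 difference of 0.94 (0.62 to 1.26). Tle4 was 1.72-fold lower, at 19.2 CPM (16.8 to 21.8) against 32.9 CPM, with a difference of -0.78 (-0.99 to -0.58). Tle1 differed by 0.53 (0.36 to 0.69) and was not called. Lef1 had 22 UMIs in LApcL and 12 in WT, at 1.77 and 0.345 CPM, too few to be tested. The median over the 7 members was 0.07 and over all genes -0.04. Both comparisons share the WT library.

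The level of Sox17 in these other crypt cells was 32.4 CPM in LApcL and 0 CPM in WT, where the floor of 3 UMIs is 0.0864 CPM, so adenoma transcripts moved with Tcf7. Per 100 Sox17 UMIs, LApcL held 8.52 (8.21 to 8.85) Tcf7 UMIs in adenoma-enriched cells and 34.3 (28.1 to 41.8) in other crypt cells, the latter of which includes the Tcf7 these cells had in WT. In enterocyte-like cells of LApcL the ratio was 10.7 (7.72 to 14.4), with Tcf7 at 3.70 CPM against 0.702 CPM in WT. Lef1 gave 1.13 (1.02 to 1.249) UMIs per 100 of Sox17 in adenoma-enriched cells, 5.47 (3.39 to 8.40) in other crypt cells and 1.81 (0.778 to 3.61) in enterocyte-like cells of LApcL. Tcf7 was also at 5.23 CPM in goblet-like, 12.0 CPM in enteroendocrine-like and 8.09 CPM in tuft-like cells of LApcL, against 0.952, 3.03 and 0.869 CPM in WT. The part of free adenoma RNA in these differences was not tested. Tle4 moved the other way: it was lower in LApcL than in WT in other crypt, enterocyte-like, goblet-like and enteroendocrine-like cells and in the Fabp6-led cluster. In enterocyte-like cells its difference was -0.47 (-0.63 to -0.32), and in enteroendocrine-like cells -1.79 (-2.66 to -1.01), from 88 and 16 UMIs. In tuft-like cells it was 0.12 (-0.38 to 0.62).

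Further members differed in single classes outside the crypt, and these values are given without a call. In enteroendocrine-like cells Tle1 stood at 38.5, 55.6 and 76.4 CPM in WT, LApc and LApcL in that order, with log2 differences from WT of 0.53 (0.14 to 0.91) and 0.99 (0.64 to 1.34). Tle2 differed there by 1.40 (0.60 to 2.22) in LApc and 0.67 (-0.23 to 1.57) in LApcL. Enteroendocrine-like cells of LApcL held the most Sox17 outside the adenoma class, at 112 CPM. In enterocyte-like cells Tle3 was lower in LApc than in WT, at 14.4 against 23.7 CPM, a difference of -0.72 (-0.95 to -0.50). Tle3 in tuft-like cells stood at 47.4 CPM in LApcL and 26.9 CPM in WT, a difference of 0.82 (0.32 to 1.31), and Tcf7l1 differed there by -1.13 (-2.21 to -0.15). Paneth-like cells are left out here because of the shift of most genes.

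Lymphocytes, which express Lef1 and Tcf7, were looked for with 12 markers, of which 11 were among the genes. Their summed level in other crypt cells was 3.48, 104 and 20.4 CPM in WT, LApc and LApcL, and in adenoma-enriched cells 10.8 CPM in LApc and 2.28 CPM in LApcL. Among the subclusters of crypt cells it was highest in a shallow one led by Ctrb1, Ccl5 and Gzma, at 1019 CPM with a median of 3189 UMIs. Of the Lef1-positive adenoma-enriched cells, 1 of 182 in LApc and 0 of 369 in LApcL carried 2 or more UMIs of the list, and of the Tcf7-positive ones 0 of 241 and 4 of 2440. In tuft-like cells of LApcL, 6 of 11 Lef1-positive cells did, where Rac2 made up most of the list. Of 8 stromal and endothelial markers, Cdh5 was the highest in adenoma-enriched cells (22.7 CPM for LApc, 15.2 CPM for LApcL), and Col1a1 and Col3a1 were at 0 in both. The list summed to 37.8 and 16.3 CPM there, and to 0.173, 1.74 and 2.33 CPM in the other crypt cells of WT, LApc and LApcL. Its part in the differences was not tested.

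The comparison of adenoma-enriched with other crypt cells of the same animal asks how the machinery differs between these classes. Recombination was not measured in the cells, so neither class is known to be all mutant or all normal. The other crypt cells include the Ctrb1-led subcluster, which held Sox17 at 94.9 CPM over all libraries. In LApc, 5 of 8 tested members were called higher and 1 lower, where 29.1% of all genes were called higher and 12.2% lower, and the median difference was 1.05 over the tested members and 0.21 over all genes. Lef1 reached the minimum of 50 UMIs through the adenoma-enriched cells. With the minimum set on other crypt cells alone, a choice made after seeing the data, 4 of 7 members were called higher and 1 lower, where 22.3% of all genes were called higher and 13.4% lower. Lef1 was 24.5-fold higher, from 14 UMIs (0.872 CPM) in other crypt cells to 210 UMIs (21.4 CPM), with a log2 difference of 4.61 (3.83 to 5.51). Tcf7 was 6.64-fold higher, at 28.6 CPM (25.3 to 32.1) against 4.30 CPM, with a difference of 2.73 (2.35 to 3.13). Lef1 and Tcf7 thus led the tested members, and their intervals did not overlap those of any class outside the adenoma in LApc, except for Lef1 in tuft-like cells, which had 3 UMIs (8.62 CPM, 1.78 to 25.2). Thinned to 3000 UMIs, 6.33% (5.03 to 7.85) of adenoma-enriched cells were positive for Lef1 and 9.13% (7.57 to 10.9) for Tcf7. Enterocyte-like cells of LApc, which should lack Lef1, gave 0 of 2599 cells, which allows a share of up to 0.115%, and 0.269% for Tcf7. Median depth was 7524 UMIs in the adenoma-enriched cells and 6766 in the other crypt cells.

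The corepressors divided. Tle1 was 3.37-fold higher in adenoma-enriched cells of LApc, at 100.3 against 29.7 CPM (log2 difference 1.75, 1.59 to 1.91), and Tle3 was higher by 1.09 (0.83 to 1.35), at 29.0 against 13.6 CPM. Tle4 was 2.12-fold lower, at 11.9 against 25.2 CPM, with a difference of -1.08 (-1.39 to -0.78). Aes differed by 0.31 and was not called. Ctnnb1 was called higher by 1.01 (0.94 to 1.08), at 385 against 191 CPM, and Tcf7l2 differed by 0.30 (0.13 to 0.46), without a call. The untested members were higher in the adenoma-enriched cells as well, with 30 against 2 UMIs for Tcf7l1 (4.61, 2.63 to 7.72) and 15 against 2 UMIs for Tle2 (3.61, 1.51 to 6.78).

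In LApcL, 8 of 10 tested members were called higher and 0 lower, where 23.7% of all genes were called higher and 9.56% lower, and the median difference was 0.87 over the tested members and 0.20 over all genes. Lef1, Tcf7l1 and Tle2 reached the minimum only through the adenoma-enriched cells and could hardly be called other than higher. With the minimum set on other crypt cells alone, 5 of 7 members were called higher and 0 lower, where 13.7% of all genes were called higher and 9.17% lower, with medians of 0.63 and 0.14. Tcf7 stood at 26.5 against 11.1 CPM (1.26, 1.01 to 1.51), Tle1 at 88.0 against 36.1 CPM (1.29, 1.15 to 1.43), Tle3 at 25.1 against 14.9 CPM (0.75, 0.54 to 0.98) and Ctnnb1 at 280.1 against 181 CPM (0.63, 0.57 to 0.70). Lef1 was higher by 0.99 (0.37 to 1.68), at 3.52 against 1.77 CPM, and Tcf7l1 by 1.40 (-0.01 to 3.30), from 94 and 4 UMIs. Tle2 had 123 UMIs in adenoma-enriched cells and 0 in other crypt cells, so that it was at least 4.597-fold higher against a floor of 3 UMIs for the group. Tcf7l2 was at the threshold, with a difference of 0.59 (0.46 to 0.72). Tle4 differed by -0.48 (-0.67 to -0.27) and was not called. TMM scaling sets the bulk of genes to no change and lowers these differences by 0.19. With it, Tcf7 and Tle1 stayed called higher, and Tle4 was called lower, at -0.67. Lef1, Tcf7l1 and Tle2 also stayed called higher, but they had reached the minimum only through the adenoma-enriched cells. Tle3 (0.56), Ctnnb1 (0.44) and Tcf7l2 (0.39) were then no longer called. The share of all genes called under this scaling is not given here. In both libraries Tle1 and Tcf7 were called higher under either scaling, and Tle3 and Ctnnb1 lost their call in LApcL with TMM scaling. Lef1 was called higher as well, but in both libraries it was tested only because of its UMIs in adenoma-enriched cells. Tle4 was at a lower level in the adenoma-enriched cells of both. The other crypt cells of LApcL carried 32.4 CPM of Sox17 and those of LApc 2.56 CPM, so the differences in LApcL stand against cells with more adenoma transcript.

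**Figure D3:**
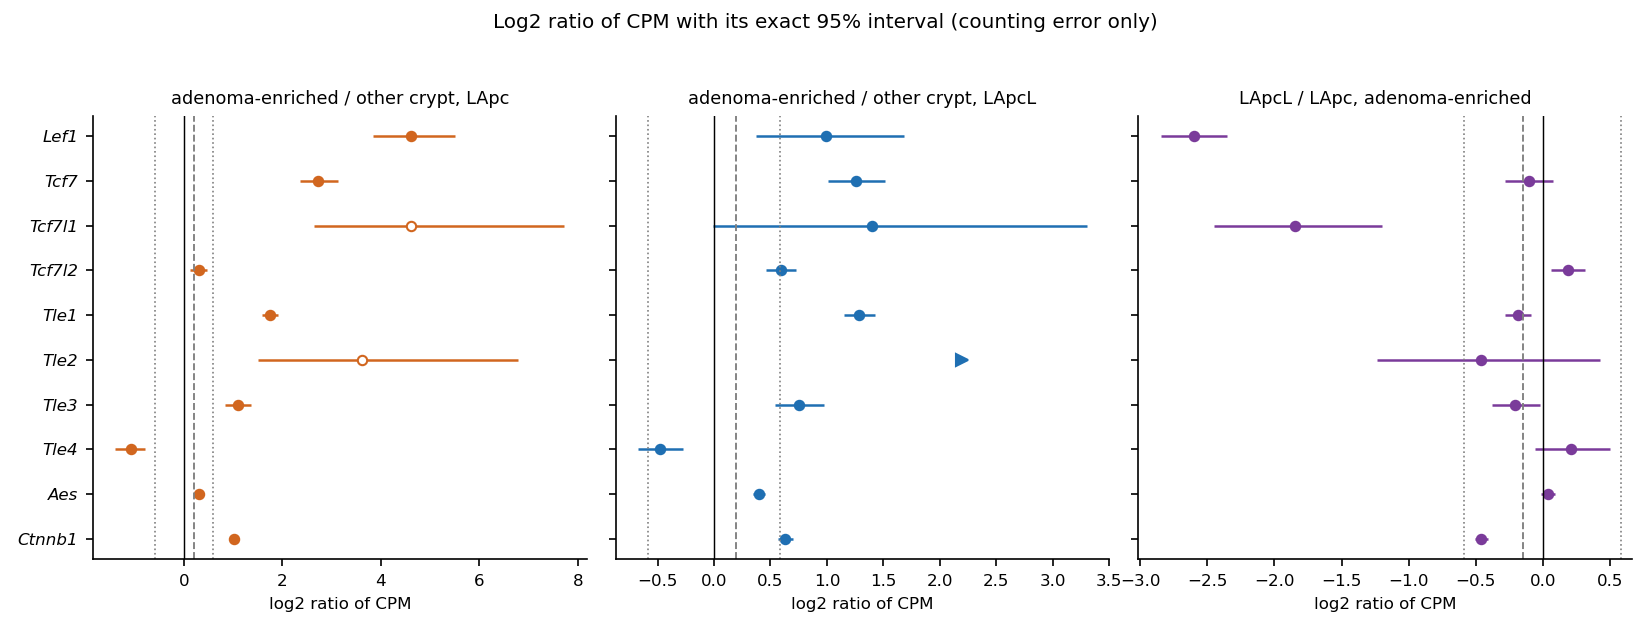
Log2 differences of the 10 members with exact 95% intervals on the horizontal axis, in 3 panels: adenoma-enriched against other crypt cells within LApc, the same within LApcL, and LApcL against LApc within adenoma-enriched cells. Filled points had 50 or more UMIs, open points fewer, the triangle for Tle2 is a lower bound, the dashed grey line is the median of all genes and dotted lines are 1.5-fold; Lef1 moved from 4.61 to 0.99 between the first panels and stood at -2.60 in the last.

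The comparison of LApcL with LApc in adenoma-enriched cells asks what else differs in the machinery where Lef1 is floxed. Of 10 tested members, 0 were called higher and 2 lower, where 5.79% of 13000 genes were called higher and 22.7% lower. The median difference was -0.20 over the members and -0.15 over all genes. Lef1 was 6.07-fold lower, with a log2 difference of -2.60 (-2.85 to -2.35). Tcf7l1 was 3.60-fold lower, at 0.848 CPM (0.686 to 1.04, 94 UMIs) against 3.05 CPM (2.06 to 4.35, 30 UMIs), with a difference of -1.85 (-2.45 to -1.202). Thinned to 3000 UMIs, 1.14% (0.931 to 1.38) of the adenoma-enriched cells of LApcL were positive for Lef1, against 0.139% of its enterocyte-like cells, and 0.271% (0.175 to 0.40) were positive for Tcf7l1 against 0.905% (0.452 to 1.61) in LApc. Enterocyte-like cells were the class of LApcL with the lowest Lef1 level. By CPM, Lef1 in LApcL was highest in tuft-like cells (6.94 CPM, 12 UMIs), then in enteroendocrine-like cells (12 UMIs). Both levels were above that of the adenoma-enriched cells (3.52 CPM, 3.18 to 3.89). Their intervals, from 12 UMIs each, overlapped that one, so neither class was separated from it beyond counting error.

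The remaining Tcf/Lef factors were near the median of all genes. Tcf7 stood at 26.5 CPM (25.6 to 27.5) in LApcL and 28.6 CPM (25.3 to 32.1) in LApc, with a difference of -0.11 (-0.28 to 0.08). Tcf7l2 stood at 61.8 CPM (60.3 to 63.2) and 54.3 CPM (49.8 to 59.1), with a difference of 0.19 (0.06 to 0.32). Neither was called. Tcf7l2 lay above the all-gene median of -0.15, while the interval of Tcf7 included that median. Ctnnb1 was lower by -0.46 (-0.51 to -0.41), at 280.1 against 385 CPM, without reaching the 1.5-fold threshold, and 55.5% against 67.1% of thinned cells were positive. Tle1 differed by -0.19, Tle3 by -0.21, Tle4 by 0.21 (-0.06 to 0.50), Tle2 by -0.46 (-1.24 to 0.42) and Aes by 0.04 (-0.01 to 0.09).

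The adenoma-enriched cells fell into subclusters whose mix differed between the libraries. The one led by Wfdc18, Clu and Lcn2 held 48.3% of the adenoma-enriched cells of LApc and 10.7% of those of LApcL. The one led by Sox17, Myl9 and H1fx held 27.5% and 38.1%, the one led by Atp4a, Pgc and S100g 17.0% and 20.1%, and the one led by Myl7, Lgals3 and Mt4 7.19% and 29.5%. A small one led by Ghrl, AY761184 and Gm15315 held 1 cell of LApc and 148 of LApcL. Lef1 was highest in the Wfdc18-led subcluster of both libraries, at 29.0 CPM (115 UMIs) in LApc and 7.15 CPM (60 UMIs) in LApcL. In LApc it stood at 21.0 CPM in the Sox17-led, 10.2 CPM in the Myl7-led and 9.37 CPM in the Atp4a-led subcluster, and in LApcL at 2.69, 4.04 and 3.14 CPM.

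Lef1 was therefore lower in LApcL within each of the 4 larger subclusters. The difference was -2.97 (-3.40 to -2.53) in the Sox17-led, -1.34 (-2.26 to -0.25) in the Myl7-led, -1.58 (-2.43 to -0.62) in the Atp4a-led and -2.02 (-2.49 to -1.56) in the Wfdc18-led subcluster. When each subcluster was given equal weight for LApc and LApcL through their mean mix, it was -2.19. Tcf7l1 was near 0 in the Myl7-led subcluster, with 0 UMIs in LApc and 6 in LApcL, and stood at 2.37 against 0.903 CPM in the Sox17-led, 4.01 against 1.54 CPM in the Atp4a-led and 4.03 against 1.79 CPM in the Wfdc18-led subcluster of LApc and LApcL. At that mean mix its difference was -1.25. Tcf7 lay between 23.4 and 34.7 CPM over the 4 subclusters of LApc and between 21.5 and 30.2 CPM over those of LApcL. In the Wfdc18-led subcluster it was lower in LApcL, at 23.8 CPM (20.6 to 27.4) against 34.7 CPM (29.2 to 41.1) in LApc, a difference of -0.55 (-0.87 to -0.22). The intervals of its difference included 0 in the Sox17-led (-0.23 to 0.42), Myl7-led (-0.28 to 0.95) and Atp4a-led (-0.62 to 0.42) subclusters.

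Tle1 was the member that varied most between subclusters among those above 20 CPM in all 4 larger ones of both libraries. It stood at 178 CPM in the Atp4a-led subcluster of LApc and 28.6 CPM in its Myl7-led one, and at 125 and 50.3 CPM in the same subclusters of LApcL. Tcf7l2 was also highest in the Atp4a-led subcluster, at 62.2 CPM in LApc and 83.7 CPM in LApcL. Atp4a and Pgc are genes of acid- and pepsinogen-secreting stomach cells. Ctnnb1 was highest in the Wfdc18-led subcluster of LApc, at 478 CPM against 312 CPM in the same subcluster of LApcL, a difference of -0.62 (-0.70 to -0.53), and was 276 against 267 CPM in the Atp4a-led one. The lower Ctnnb1 of LApcL was thus found in the Wfdc18-led and Sox17-led (-0.44, -0.53 to -0.35) subclusters, while the intervals in the Atp4a-led (-0.19 to 0.10) and Myl7-led (-0.26 to 0.06) ones included 0.

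**Figure D4:**
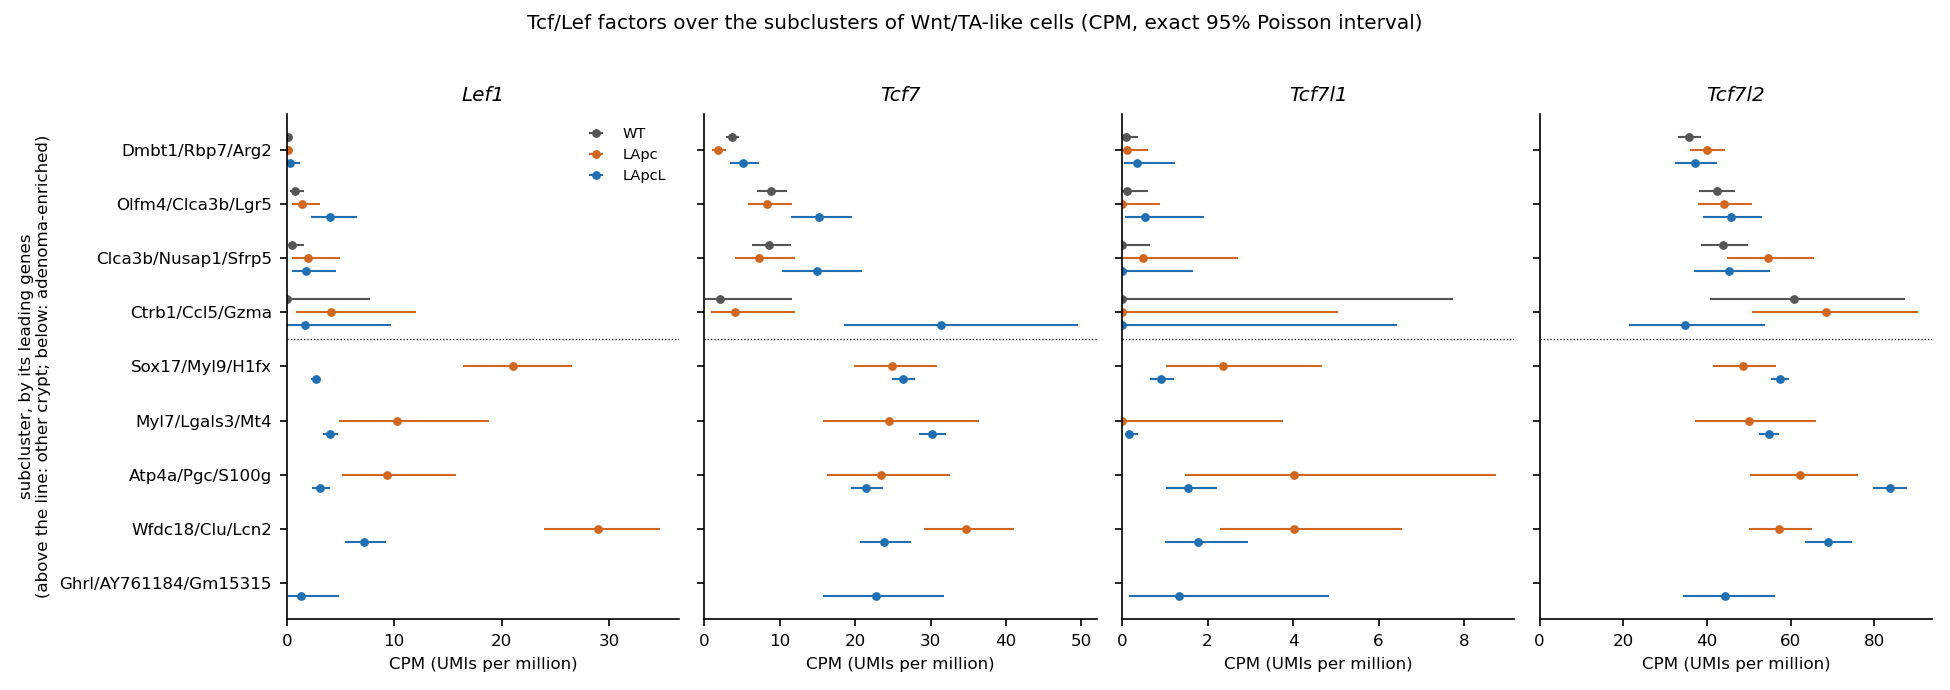
Levels of Lef1, Tcf7, Tcf7l1 and Tcf7l2 in CPM on the horizontal axes by subcluster of Wnt/TA-like cells, named by leading genes, with exact 95% Poisson intervals and colors for the 3 libraries; a dotted line divides other crypt cells (above) from adenoma-enriched cells (below). Lef1 was highest in the Wfdc18-led subcluster of LApc at 29.0 CPM, and was lower in LApcL in each of the 4 larger adenoma-enriched subclusters, whereas Tcf7 was lower in LApcL in the Wfdc18-led one, at 23.8 against 34.7 CPM, with overlapping intervals in the other 3.

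Co-detection was counted in cells thinned to 3000 UMIs, as the number of cells positive for both members of a pair against the number expected if they were independent within the class. Most single cells held 0 or 1 of the Tcf/Lef factors at this depth. In other crypt cells of WT, 12.5% held 1 and 0.325% held 2 (10 of 3076 cells). In adenoma-enriched cells of LApc, 24.6% held 1, 3.21% held 2 and 5 of 1216 cells held 3 or more, and 71.8% held none. In those of LApcL, 22.1% held 1, 1.66% held 2 (153 of 9229 cells) and 2 cells held 3 or more. Cells with 2 or more Tle genes made up 10.5% (2 genes) and 0.813% (3 or more) of other crypt cells of WT, and 19.4% and 2.63% of adenoma-enriched cells of LApc. Most of these pairs include Aes, which was positive in 58.1% of the other crypt cells.

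Given the frequency of each gene, the members were found together in about the expected number of cells. The median ratio of observed to expected cells was 1.04 over the 27 pairs with at least 5 expected cells in the adenoma-enriched cells of LApc, 1.02 over 34 pairs in those of LApcL and 1.03 over 18 pairs in other crypt cells of WT. Over the genes of the whole table, the median ratio with Lef1 was 1.00 in both libraries, with 5th and 95th percentiles of 0.532 and 1.53 in LApc. Of 45 pairs, the interval of the odds ratio lay above 1 for 1 pair in LApc and 3 in LApcL, and below 1 for 0 and 2. In other crypt cells of WT it left 1 for 0 pairs. No such count over pairs of all genes is given here, so these few pairs are not set apart from other gene pairs.

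Lef1 and Tcf7 were both found in 12 cells of LApc where 7.03 were expected, with an odds ratio of 1.94 (0.921 to 3.78), and in 8 cells of LApcL where 8.06 were expected. Lef1 and Tcf7l2 were both found in 26 cells of LApcL against 17.3 expected (1.68, 1.03 to 2.66), and Lef1 and Tle3 in 14 against 7.54 (2.01, 1.05 to 3.57). In LApc the same pairs were found in 17 cells against 12.2 expected (1.55, 0.827 to 2.77) and 7 against 6.71 (1.05, 0.397 to 2.37). Aes and Ctnnb1 had an odds ratio of 1.10 (1.008 to 1.199) in LApcL, with 3390 cells against 3341 expected. Tle1 was found with Tcf7 in fewer cells than expected, 136 against 161 (0.791, 0.647 to 0.962), and with Ctnnb1 in 1088 against 1168 (0.820, 0.743 to 0.905). When the expected number was summed over subclusters it was 157 for Tle1 with Tcf7 and 1149 for Tle1 with Ctnnb1. Tcf7 and Tle2, the pair outside 1 in LApc, rested on 4 cells. Without thinning, 22 pairs lay above 1 in LApcL, where deeper cells are positive for more genes.

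**Figure D5:**
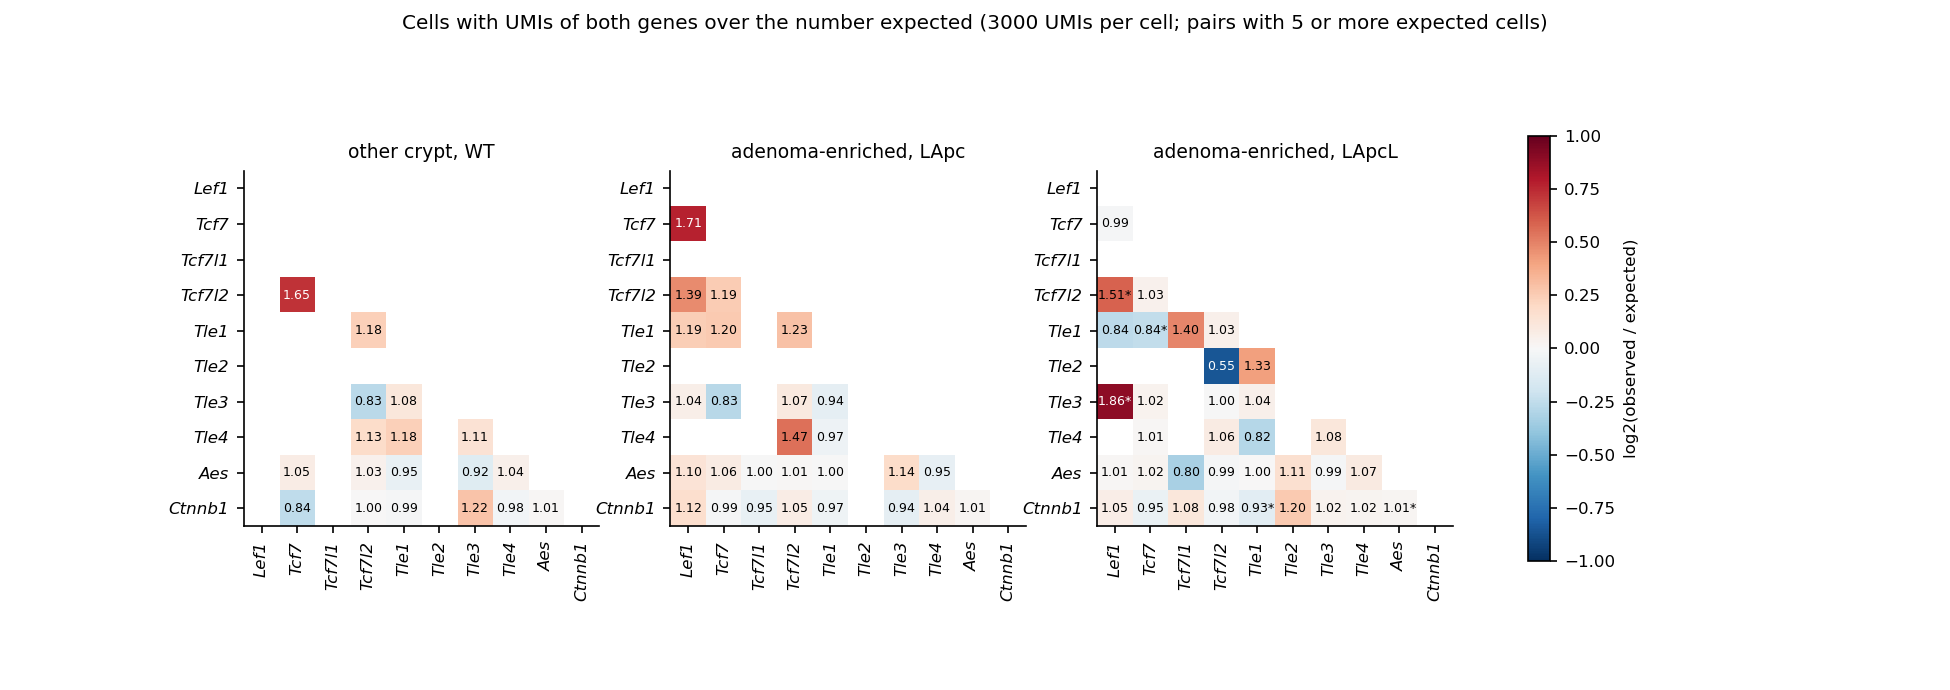
Heat maps of observed over expected cells positive for both members of a pair, in cells thinned to 3000 UMIs, for other crypt cells of WT and the adenoma-enriched cells of LApc and LApcL; only pairs with at least 5 expected cells are colored, and an asterisk marks an odds ratio whose 95% interval leaves 1. Ratios lay near 1 for most pairs, with medians of 1.03, 1.04 and 1.02, and the highest in LApcL was that of Lef1 with Tle3 at 1.86.

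Lef1-positive adenoma-enriched cells were also set against Lef1-negative ones of the same library for Prox1, Lgr5 and Mki67. In LApc, Prox1, a homeobox Wnt target of adenomas, was detected in 47 of 77 Lef1-positive cells (61.04%, 49.2 to 72.0) and in 40.2% (37.3 to 43.1) of Lef1-negative cells. In LApcL the shares were 15.2% (9.0 to 23.6) and 11.1% (10.4 to 11.7). Lgr5, the stem cell receptor, was at 11.7% and 11.2% in LApc and at 3.81% and 2.48% in LApcL. The proliferation gene Mki67 was at 6.49% (2.14 to 14.5) and 14.6% (12.6 to 16.8) in LApc and at 18.1% and 20.3% in LApcL. Only for Prox1 in LApc were the intervals of these 3 genes apart. The Lef1-positive cells were mixed differently, since 58 of the 77 (75.3%) lay in the Wfdc18-led subcluster against 46.2% of the Lef1-negative cells of LApc. That subcluster, over all libraries, held Prox1 at 201 CPM, against 17.1 to 60.7 CPM in the other 4 adenoma-enriched ones, and Mki67 at 17.4 CPM. Within it, Prox1 was detected in 42 of 58 Lef1-positive cells (72.4%, 59.1 to 83.3) and in 54.6% (50.2 to 58.9) of Lef1-negative cells of LApc. Mki67 was there in 3.45% and 2.09%, and Lgr5 in 12.1% and 17.7%. The other subclusters of LApc held few Lef1-positive cells. Prox1 was in 5 of 13 of them (38.5%, 13.9 to 68.4) against 37.0% of Lef1-negative cells in the Sox17-led one. It was in 0 of 4 against 19.7% in the Atp4a-led and 0 of 2 against 12.6% in the Myl7-led one. Mki67 in the Sox17-led one was in 2 of 13 (15.4%) against 35.2%. Among the members, Ctnnb1 was detected in 75.3% (64.2 to 84.4) of Lef1-positive and 66.5% (63.7 to 69.3) of Lef1-negative cells of LApc.

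Over the 22 groups of class and library with at least 100 cells, which share libraries and depth, the genes whose log2(CPM + 1) followed a factor most closely were sought among 10434 genes. For Lef1 they were Ncs1 (Pearson r 0.94), Cadm1 (0.94) and Htra1 (0.93). Those for Tcf7 were Tnfrsf19 (0.95), a receptor known from stem cells, Flna (0.94) and Ifitm3 (0.93). Tcf7l1 was followed by Ppp1r3b (0.92), Nfatc1 (0.91) and Ccdc109b (0.91), and Tcf7l2 by Dram2 (0.96), Pex11g (0.94) and Tmem9b (0.94). Among the members, r was highest between Aes and Ctnnb1 (0.94), and was 0.82 between Lef1 and Tcf7. These values describe 22 dependent groups and carry no test.

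The partners of beta-catenin were counted in 4 lists with 31 genes. Between adenoma-enriched and other crypt cells of LApc, 3 of 9 tested nuclear coactivators were called higher and 1 lower, as were 3 and 0 of 8 further repressors and inhibitors, 3 and 0 of 8 genes of the destruction complex, and 2 and 0 of 4 junction partners. All-gene shares were the 29.1% and 12.2% given above. Bcl9 and Bcl9l, which bridge beta-catenin to its coactivators, were higher by 1.03 and 1.204, and Axin2, a destruction complex scaffold and Wnt target, by 1.29, at 172 against 70.1 CPM. Tbl1xr1 was lower by -0.85 (-1.09 to -0.60). Hdac1 was higher by 1.14 and Nlk, a kinase that phosphorylates Tcf/Lef factors, by 1.12. In LApcL the counts were 3 and 1 of 9, 2 and 0 of 9, 2 and 0 of 8, and 1 and 0 of 4, where 23.7% of all genes were called higher and 9.56% lower. Axin2 was higher by 0.78.

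Between LApcL and LApc in adenoma-enriched cells, Nlk was the 1 gene of 30 tested in these lists that was called, where 5.79% of all genes were called higher and 22.7% lower. It stood at 10.9 against 22.9 CPM, a difference of -1.08 (-1.28 to -0.86). Medians of the lists lay between -0.20 and -0.16, close to the -0.15 of all genes. Between LApcL or LApc and WT in other crypt cells, 0 of the 29 tested genes were called in either comparison. Of all genes, 7.84% were called higher and 5.81% lower in LApcL, and 10.8% higher and 3.36% lower in LApc.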

How the data were processed

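Single cells were sorted for EpCAM from the small intestine of 1 mouse library per genotype, and 3′ libraries were made with 10x Genomics kits; which kit version each library used is not given in the sources used here. Per the labels, the authors made the deposited UMI counts with Cell Ranger 2.1.1 on mm10. Counts hold no normalization, and 0 columns belonged to no sample.

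After the study's description, the 1% of cells with the most and the 1% with the fewest detected genes and cells above 20% mitochondrial counts were removed. The cells with the highest Scrublet scores (scanpy 1.11.5) were removed as doublets, at 0.8% per 1000 barcodes, in place of scDblFinder. Libraries were integrated by CCA with 20 dimensions and clustered by the Louvain method at resolution 0.2 (Seurat 5.3.0), with the members, their partner lists and the adenoma transcripts left out of the features. Clusters were named from markers. Wnt/TA-like cells were clustered again by the Leiden method (resolution 0.4) after a correction by 53 mutual nearest neighbours. Counts were summed per class and library and given as CPM with exact 95% Poisson intervals. Differences are log2 ratios of CPM with exact conditional binomial intervals, and shares have Clopper-Pearson intervals. Shares of positive cells were taken after thinning each cell to 3000 UMIs, which left out shallower cells. With 1 library per group no test was made. A gene was called past 1.5-fold with at least 50 UMIs in both sums. Depth was 140181087, 79696291 and 191509615 counts, and PCR was accounted for by UMIs, so intervals cover counting error only. A count of 0 allows 3 counts. TMM factors came from edgeR 4.0.16. The intervals were checked on simulated Poisson sums only, which cannot show whether they hold where UMIs cluster within cells. The alternatives covered scaling, filters, doublets, clustering, thinning, lymphocyte markers, the fold and the minimum of UMIs.

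The rule for named genes was that all 10 members are named, partner genes are given as counts per list, and the 3 genes most like each Tcf/Lef factor and the 3 leading genes of each adenoma subcluster are named. Partner genes named beyond the counts were chosen after their values were seen, as were the leading genes of other crypt subclusters. The members and lists were chosen with earlier results of these data known.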

Additional observations from a re-analysis of the deposited data

Results flagged for a closer look

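The difference of Tle4 between LApcL and WT had values of opposite sign in different classes. It was -0.78 on the log2 scale in other crypt cells and -1.79 in enteroendocrine-like cells, and 0.64 (-0.30 to 1.49, from 15 and 51 UMIs) in Paneth-like cells. The difference between classes was not tested. In Paneth-like cells the median of all genes was itself higher by 0.75 in LApcL, and the interval of Tle4 included 0. An opposite direction of Tle4 in that class was therefore not shown.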

How the results depend on the processing

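No paired analysis was possible because each genotype was 1 library, and for the same reason no replicate could be left out. Over the alternatives, 312 of 351 values of single members moved by less than their counting error, 39 moved by more and 0 called ones changed direction. With no minimum of UMIs, LApc against WT in other crypt cells gave 1 called member in place of 0, and LApcL against WT gave 5 in place of 2. LApcL against WT gave 5 with adenoma cells taken from integrated clusters and 0 at a fold of 2. LApcL against LApc in adenoma-enriched cells gave 1 after thinning in place of 2. Adenoma-enriched against other crypt cells of LApcL gave 3 with integrated clusters, 5 after thinning, 4 at a fold of 2 and 5 with the minimum set on other crypt cells alone, in place of 8. Except for the minimum set on other crypt cells, the share of all genes called under each setting is not given here. These counts are therefore not read as results about the members. Co-detected pairs in LApcL numbered 22 without thinning, in place of 3. The difference of Lef1 between LApcL and LApc was -2.60 and lay between -2.67 and -2.46 under the other settings. Within subclusters, chosen after seeing the data, it was -2.97, -1.34, -1.58 and -2.02, and -2.19 at a shared mix. Apart from the depth of thinning, the fold and the minimum, the cause of these changes was not tested. Depth limited Lef1 outside the adenoma and Tcf7l1 and Tle2 in most classes.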
